A study of Mus musculus with 12 samples.

Results

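The rows described here are 202 of the 932 rows of a small RNA table from mouse heart mitochondria. They were chosen by name alone: each carries a chromosome and a running number, such as 18_20608, where the other 730 rows carry a mouse miRNA name beginning with mmu-. There were 12 libraries, 6 labelled WT (wild type) and 6 labelled db/db. The db/db mouse carries a mutated leptin receptor gene and is a model of obesity with type 2 diabetes. Every library was made from the mitochondrial fraction of heart; the sources used here do not give age, sex or strain background. Samples are numbered 1 to 6 within a genotype, and nothing in the labels ties a number to an animal. The spread behind each p-value is therefore that between samples and may be technical. Values are in RPM, the reads of a row scaled to a library total of 1000000 reads over all listed rows. A value with ± is a mean with its SD over the 6 libraries of a genotype (n = 6), except that a log2 fold change, always db/db over WT, has its SE.

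A miRNA is cut from a hairpin in a longer transcript, first by Drosha in the nucleus and then by Dicer in the cytoplasm. One strand of the resulting duplex is loaded into an Argonaute protein, where its seed, the bases near the 5′ end, pairs with target mRNAs. Programs that predict miRNAs from sequencing look for stacks of short reads on a stretch of genome that can fold into such a hairpin. The table pairs the rows with neither a sequence nor a coordinate, and the sources used here do not name the program that made them. Whether a row is a miRNA was not tested, and none is given a gene name.

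Depth is the number of reads recovered from the RPM steps, and was lowest in db/db library 6, at 412749 reads, and highest in db/db library 5, at 1382046. Where a row was at 0, its true level could still be as high as 3 reads, which is 2.17 to 7.27 RPM depending on the library and covers counting error alone. Heart muscle markers were high in every library: miR-1a-3p, miR-133a-3p, both arms of miR-208a and miR-499-5p together reached 367382 to 421300 RPM in WT against 338731 to 440054 RPM in db/db libraries. Markers of red blood cells (3 of 3), leukocytes (3 of 4), endothelium (2 of 2) and smooth muscle and fibroblasts (4 of 4) were above 0 in every library as well. The summed red blood cell markers were 9900 to 21106 RPM in WT and 18260 to 30614 RPM in db/db libraries. miR-122-5p of liver and miR-124-3p of neurons were at 0 in at least 1 library of each genotype and at most 50.9 RPM.

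The unnamed rows were scarce as a group. They held 8627 of 9276707 reads, or 0.0930%. The most abundant of them, 18_20608, ranked 118 among all rows by mean RPM, below 117 rows with a miRNA name. Of the 202 rows, 34 were 0 in every library and 168 were above 0 somewhere. The median row above 0 had 14 reads over all 12 libraries together. A mean of at least 1 RPM was reached by 133 unnamed rows, of at least 10 RPM by 17, and of at least 100 RPM by 1. Among rows with a miRNA name, 513 of 730 reached 1 RPM and 287 reached 10 RPM.

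Reads were concentrated in few rows. 18_20608 alone held 22.0% of the reads of unnamed rows, the 3 rows of highest total held 40.0% and the 10 of highest total held 65.2%. The 12 rows above 0 in every library held 66.6%, which was 50.7 to 78.6% within single libraries. The 95 rows above 0 in exactly 1 library held 13.8%, and the 61 rows seen in 2 to 11 libraries held 19.6%.

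Recurrence over the libraries was low. Of the 202 unnamed rows, 95 (47.0%) were above 0 in exactly 1 library and 24 in exactly 2. Only 49 were above 0 in 3 or more libraries and 12 (5.94%) in all 12. Among rows with a miRNA name, 141 (19.3%) were above 0 in exactly 1 library and 241 (33.0%) in all 12. The recurrence plot shows the unnamed rows piled at 0 and 1 library and the named rows at both ends.

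**Figure D1:**
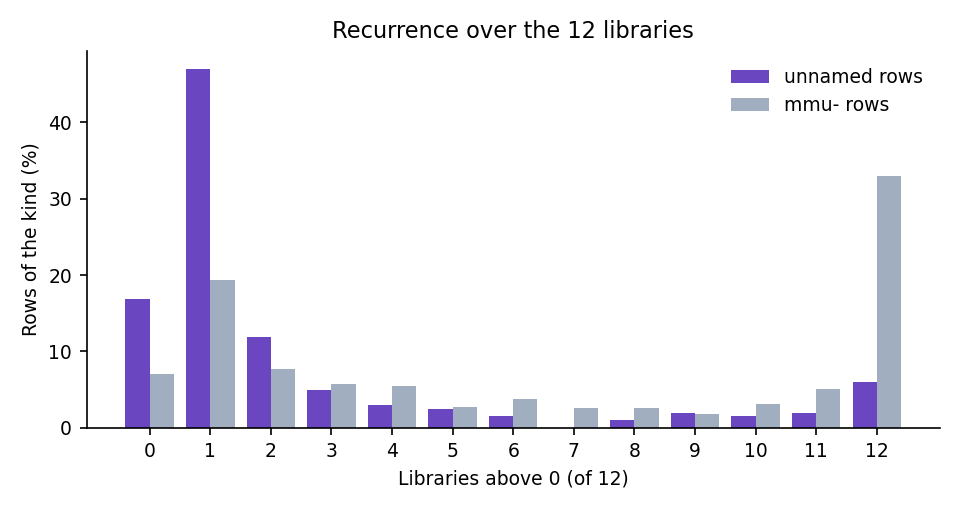
Bars give the percent of the 202 unnamed rows (purple) and of the 730 mmu- rows (grey) by the number of libraries, of 12, in which the row was above 0. Of the unnamed rows 47.0% were seen in 1 library and 5.94% in all 12, against 19.3% and 33.0% of the named rows.

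Low abundance and low recurrence went together, so rows were also compared at like mean RPM, as a description with no test. Between 1 and 2 RPM, the 71 unnamed rows were above 0 in a median of 1 library and the 87 named rows in a median of 3. Between 2 and 5 RPM, the 42 unnamed rows were again above 0 in a median of 1 library, and 23 of them in exactly 1. The 76 named rows of that range were above 0 in a median of 5 libraries, and 0 of them in exactly 1. Between 5 and 10 RPM the order was the other way, with a median of 11 libraries for the 3 unnamed and 8 for the 63 named rows. From 10 to 20 RPM the median was 11 libraries for the 9 unnamed and the 50 named rows alike. Identical rows were counted each: the 3 unnamed rows include 7_37457 and 7_37458, and the 9 include 1_305 and 1_306. The order between 5 and 10 RPM therefore rests on very few distinct patterns. Below 1 RPM, rows at 0 throughout apart, it was 1 library for the 35 unnamed and the 166 named rows alike. All 8 unnamed rows above 20 RPM were above 0 in all 12 libraries.

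The rows seen in a single library had read counts that were not spread evenly from 1 upwards. Of the 95 unnamed rows, 74 (77.9%) had 12 or more reads, 61 of them between 12 and 16, and the highest had 22. Exactly 12 reads were held by 16 rows, 11 reads by 0 rows and 10 reads by 1 row. Of the 141 named rows seen in a single library, 11 (7.80%) had 12 or more reads, and their median was 4 reads against 14 for the unnamed rows. Rows in exactly 2 libraries had the same median total of 14 reads when unnamed and 9 when named. The plot of single-library rows shows the unnamed rows starting sharply at 12 reads, with 21 below that number. The sources used here do not say how rows entered the table or whether a minimum of reads was set.

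**Figure D2:**
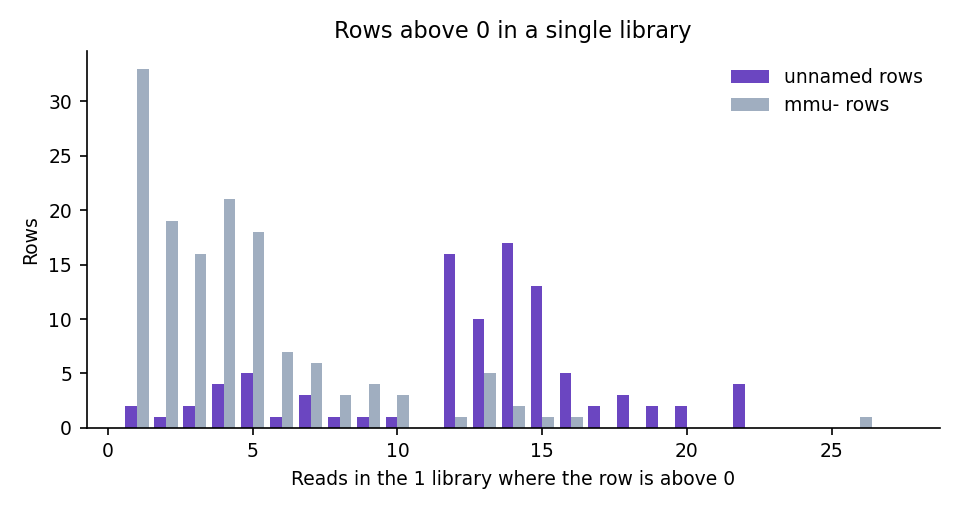
Bars count the rows above 0 in only 1 library by the number of reads they had there, unnamed rows in purple (95) and mmu- rows in grey (141). Unnamed rows gather from 12 to 16 reads, and named rows mostly at 1 to 5.

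The median reads behind such a row lay between 12.5 and 15 in 10 of the 12 libraries. The rows seen only in db/db library 5, the deepest, numbered 12 and had a median of 13.5 reads. In db/db library 6, the shallowest, there were 5 with a median of 15. The 2 exceptions were WT library 5, the second deepest, where 7 rows had a median of 5 reads and 3 of them 12 or more, and db/db library 4, where 2 rows had a median of 8.5. WT library 4 had the most rows of this kind, 15, and db/db library 4 the fewest. In all, 51 of the 95 rows were seen in a WT library and 44 in a db/db library.

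Unnamed reads per library stayed within 496 to 889 while depth varied from 412749 to 1382046 reads. The share of reads in unnamed rows was lower in deeper libraries, from 0.160% in WT library 4 (95% Wilson interval 0.149 to 0.170) to 0.0574% in db/db library 5 (0.0535 to 0.0615). Over the 12 libraries the share and the log2 of depth had a Pearson r of -0.84 (permutation p = 4e-05, adjusted over 7 relations 0.00028) and a Spearman rho of -0.85 (permutation p = 0.00098, adjusted 0.00686). Without the 2 libraries farthest from the median depth, db/db 5 and db/db 6, r was -0.84. It was -0.95 within the 6 WT and -0.82 within the 6 db/db libraries. Depth is the denominator of the share, so the 2 measures are not independent. The number of unnamed reads itself had an r of -0.04 with depth (permutation p = 0.910, adjusted 0.910) and a rho of -0.27 (permutation p = 0.405, adjusted 0.568). That r differed with the libraries taken: it was -0.50 without db/db 5 and db/db 6, -0.78 within WT and 0.29 within db/db libraries.

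The 12 rows present in every library gave a like value. Their summed RPM had an r of -0.84 with log2 depth (permutation p = 1e-04, adjusted 0.00035; rho -0.81, permutation p = 0.00226, adjusted 0.00791). It was -0.79 without db/db 5 and db/db 6, -0.92 within WT and -0.86 within db/db libraries. The sum was 291 RPM in db/db library 5 and 986 RPM in WT library 4. These rows held 66.6% of the unnamed reads, and RPM has depth as its denominator too. Their relation with depth is therefore not independent of that of the share. For named rows with a mean of 10 to 250 RPM, summed in the same way, r was -0.50 (permutation p = 0.0961, adjusted 0.168; rho -0.39, permutation p = 0.208, adjusted 0.365), and 0.04 without db/db 5 and db/db 6, so that the pooled relation rested on those 2 libraries. For these named rows r was 0.11 within WT and -0.70 within db/db libraries. The difference between these correlations was not tested. The number of unnamed rows above 0 had an r of 0.30 with depth (permutation p = 0.342, adjusted 0.479; rho 0.20, permutation p = 0.525, adjusted 0.612), and that of named rows an r of 0.77 (permutation p = 0.00238, adjusted 0.00555; rho 0.78, permutation p = 0.00368, adjusted 0.00859). Without db/db 5 and db/db 6 the former was -0.28 and the latter 0.85. Within WT they were -0.40 and 0.90, and within db/db libraries 0.55 and 0.87.

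**Figure D3:**
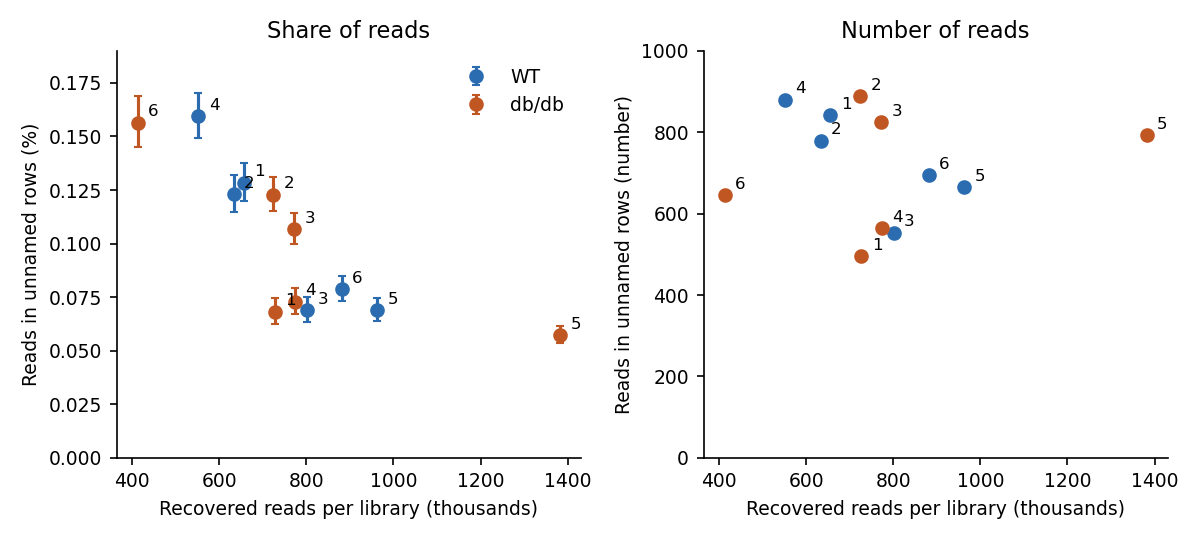
Each point is 1 library, numbered as in the labels, in blue for WT and orange for db/db. The left panel plots the percent of reads in unnamed rows with its 95% Wilson interval and the right panel their number, both against recovered reads; the share falls with depth from 0.160% to 0.0574%, while the number stays between 496 and 889.

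The 12 rows present in all libraries were the only unnamed rows with values to compare library by library throughout. 18_20608 stood highest: 162 to 281 RPM in WT (median 189) and 86.1 to 339 RPM in db/db libraries (median 249). Its groups overlapped, with both the lowest and the highest value in db/db libraries. 10_4148 followed at 57.1 to 219 RPM in WT (median 109) and 40.5 to 89.6 RPM in db/db libraries (median 75.2). Here 4 of 6 WT libraries lay above every db/db library, and the other 2 within the db/db range. 11_5914 stood at 41.2 to 160 RPM in WT (median 104) and 32.6 to 182 RPM in db/db libraries (median 66.0), again overlapping throughout.

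The next 4 rows had means from 37.2 to 57.1 RPM and were uneven among libraries of 1 genotype. 2_24357 ranged from 22.0 to 125 RPM, 19_22224 from 22.0 to 149 RPM and 4_29206 from 12.1 to 127 RPM, and each had its highest value in WT library 4. 2_22806 ranged from 11.6 to 107 RPM and was highest in db/db library 6. 11_6758, with a mean of 26.0 RPM, was 107 RPM in that library as well and at most 34.7 RPM in the other 11. WT library 4 and db/db library 6 are the 2 shallowest libraries. Of the 73 unnamed rows seen in 2 or more libraries, 28 had their highest RPM in 1 of these 2, with identical rows counted each. The 2 libraries were known to stand apart before the count. Named rows were not counted in this way, so the count is not shown to be particular to unnamed rows. The part of depth in it was not tested.

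The remaining 4 rows were the least abundant of the 12. 19_20769 averaged 19.1 RPM, 15_15489 averaged 15.7 RPM and 14_13453 averaged 13.0 RPM. 18_20415 averaged 4.89 RPM, or 43 reads over all libraries, and ranged from 1.45 to 9.69 RPM. Its reads deviated from shares proportional to depth by a chi-square of 1.12 per degree of freedom, where counting error alone gives about 1. At the same relative spread this measure rises with the reads of a row, so it does not rank rows of unlike totals. 18_20608, with 1899 reads, gave 22.3, 19_20769, with 153 reads, gave 9.14, 15_15489, with 141 reads, gave 5.04, and 14_13453, with 113 reads, gave 2.67. Among unnamed rows of 100 or more reads the median was 16.7 (13 rows), beside 7.85 for 165 named rows of 100 to 2000 reads. The difference between the 2 kinds of row was not tested.

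**Figure D4:**
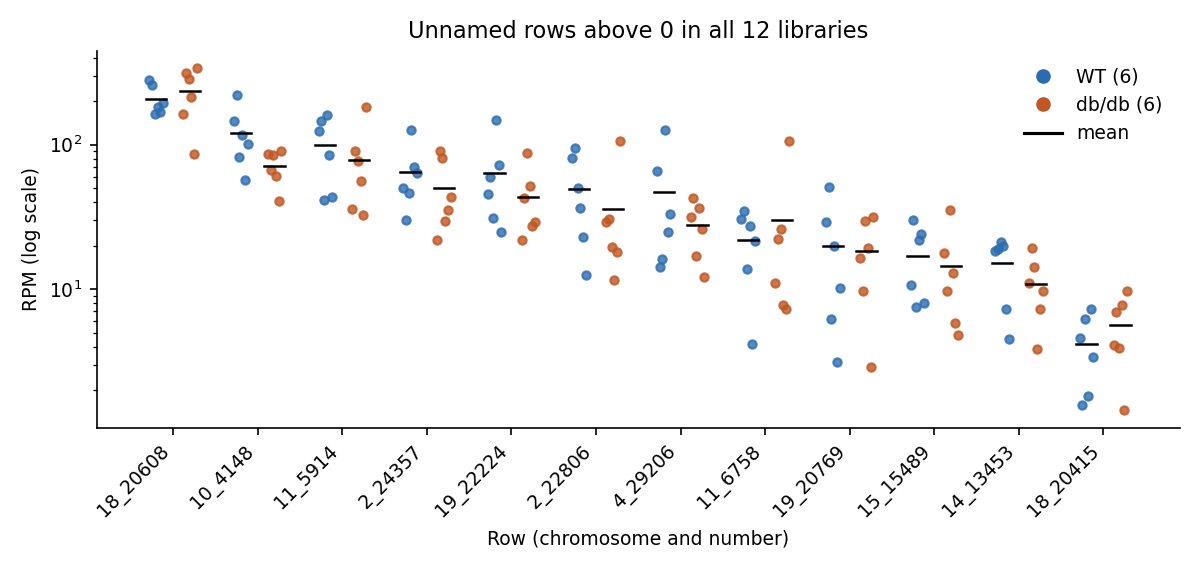
Points give RPM on a log scale for the 12 unnamed rows above 0 in every library, 6 WT libraries in blue and 6 db/db libraries in orange, with a black line at each mean. The genotypes overlap in all 12 rows, and single libraries such as db/db 6 in 11_6758 (107 RPM) lie far from the rest.

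The row names spread over all 19 autosomes and X, with 1 further row on the unplaced scaffold GL456382.1. No row was named for Y or for the mitochondrial genome (0 of 202 each), although the RNA came from a mitochondrial fraction. Chromosomes 2 and 11 had the most rows, 19 and 18, and chromosome 13 the fewest, 4, with a median of 10. Reads were far less even than rows. Chromosome 18 had 5 rows and 22.8% of the unnamed reads, of which 18_20608 made up 96.6%. Chromosome 11 had 14.9%, chromosome 2 had 13.1% and chromosome 10 had 11.1%, where 10_4148 made up 85.8% of the chromosome's reads. Chromosomes 5, 13, 16 and 17 each had under 1%.

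The chromosomes of named miRNAs gave a different order. Of the named rows, 635 matched a mature miRNA in RefSeq tables of GRCm38.p6, used here for chromosome names alone because the deposited table was made on GRCm39. Chromosome 12, which holds the Dlk1-Dio3 imprinted cluster, had 84 of them (13.2%), and X had 70 (11.0%). The unnamed rows had 8 (3.96%) on chromosome 12 and 10 (4.95%) on X. Chromosome 11 was rich in both, with 71 named (11.2%) and 18 unnamed rows (8.91%). Chromosome 18 was not compared. These shares are a description with no test.

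The numbers in the row names ran from 305 to 46044 and rose with the chromosomes in the order of their names as text: 1, 10 to 19, 2 to 9, X, then the scaffold. The ranges of different chromosomes did not overlap (0 overlaps), as in a running index over the genome, and the numbers are too small to be positions in bases. Rows with neighbouring numbers were compared in place of coordinates.

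Rows with consecutive numbers were duplicates of each other. There were 9 such pairs. In 3 pairs both rows were 0 in every library, and in the other 6 pairs both rows had the same reads in all 12 libraries. The pair 7_37457 and 7_37458 had 71 reads each over 11 libraries, from 0 in WT library 5 to 35.1 RPM in WT library 1. The pair 1_305 and 1_306 had 84 reads each over 10 libraries, from 0 to 43.6 RPM in db/db library 6. The pair 1_1619 and 1_1620 had 40 reads each over 5 libraries, with 22.7 RPM in WT library 6. The other 3 pairs were seen in 1 library each, with 7 to 15 reads, and 15_14567 and 15_14568 also shared their 15 reads with 10_3443, 14_12893 and 8_39925. Of 118 pairs of unnamed rows that neighboured each other on a chromosome with a gap in number, both above 0, 1 was identical.

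In the named rows, the 1 set identical in 3 or more libraries was a pair of miRNAs with the same mature sequence. The sequences of the identical unnamed rows are not known here, and whether those rows share one was not tested. Those of the named pair are shown as a case of identical rows with known sequences. They are from RefSeq (GRCm38.p6), 5′ to 3′, with the seed, bases 2 to 8, in capitals.
let-7a-1-3p: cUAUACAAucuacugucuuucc
let-7c-2-3p: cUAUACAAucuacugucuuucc
Both had 819 reads, and 98.8 ± 28.1 RPM in WT against 82.1 ± 19.0 RPM in db/db libraries. A shared sequence did not always give the same values, as the other pair of named rows with a shared sequence shows.
miR-199a-3p: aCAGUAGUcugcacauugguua
miR-199b-3p: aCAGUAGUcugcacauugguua
These 2 had equal reads in 1 of 12 libraries, with means of 2533 and 2518 RPM.

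Most identical rows did not have consecutive numbers. In all, 41 sets of identical rows above 0 held 77 unnamed rows, and 6 of the sets contained a consecutive pair. Of the 41 sets, 35 had reads in 1 library only and 3 in 2. An unnamed row coincided with a named row in 19 sets, all of them in a single library. In such sets the rows had equal small counts, as in 12_10004 and miR-5621-3p, each with 13 reads in WT library 1. Whether such rows share reads or are equal by coincidence was not tested. Only the 3 sets of consecutive numbers given above were identical in 3 or more libraries. With identical rows merged, the 168 unnamed rows above 0 became 132 patterns, and the 49 rows seen in 3 or more libraries became 46.

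The comparison of db/db with WT called 0 of 133 unnamed rows tested. The test was limma on log2(RPM + 1), fitted over all 646 rows that averaged 1 RPM or more and adjusted over all of them, where 0.155% of rows passed at an adjusted p under 0.05. The lowest adjusted p of an unnamed row was 0.504. At an unadjusted p under 0.05 limma had 2 unnamed rows, 1 higher and 1 lower in db/db libraries, where 8.98% of all rows tested passed. The log2 fold changes of the 133 rows were positive in 65 and negative in 68, with a median of -0.05 beside -0.04 over all rows. Of these 133 rows, 65 were seen in a single library, so that their fold change rests on 1 value. Their limma unadjusted p lay between 0.243 and 0.363. Such rows could hardly be called at any genotype difference, and their lack of a call says nothing of genotype. Of the 47 tested rows seen in 3 or more libraries, 2 had a limma unadjusted p under 0.05.

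The rows with the smallest p did not pass the threshold after adjustment. 11_7908 had 0 to 33.6 RPM in WT (median 10.8) and 13.7 to 42.7 RPM in db/db libraries (median 27.0). The 6 db/db libraries lay at or above 13.7 RPM and 4 of 6 WT libraries below it. Its log2 fold change was 1.65 ± 0.73 (limma unadjusted p = 0.0267, adjusted p = 0.504), and edgeR, which tests the recovered reads, gave 1.15 (adjusted p = 0.408). 10_4148 went the other way, with 120 ± 57.2 RPM in WT against 71.3 ± 19.1 RPM in db/db libraries, and its log2 fold change was -0.67 ± 0.33 (limma unadjusted p = 0.0458, adjusted p = 0.543). 2_22626 had 4.71 ± 3.82 RPM in WT against 16.6 ± 10.5 RPM in db/db libraries (log2 fold change 1.64 ± 0.90; limma adjusted p = 0.695).

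The other 7 of the 10 smallest p belonged to rows with 11 to 27 reads. 9_43583 was above 0 in 1 WT library (4.16 RPM) and 4 db/db libraries (2.58 to 19.4 RPM). 15_15080 was above 0 in 1 WT library (1.25 RPM) and 3 db/db libraries (0.724 to 29.1 RPM). 6_35695, 7_38582, 5_31979 and 10_4891 were listed at 0 in all WT libraries and above 0 in 3, 3, 2 and 2 db/db libraries, none above 15.2 RPM. 7_38395 was listed at 0 in all db/db libraries and above 0 in 3 WT libraries, with 19.9 RPM in WT library 4 and at most 1.25 in the other 2. Each of these 7 had a limma adjusted p of 0.717.

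The 12 rows present in all libraries had log2 fold changes from -0.67 to 0.35, with 8 negative, 4 positive and a median of -0.39. The median over all 646 rows was -0.04. 18_20608 stood at 0.06 ± 0.26, 11_5914 at -0.40 ± 0.38, 2_24357 at -0.39 ± 0.41 and 19_22224 at -0.45 ± 0.43 on this scale. For no row of the 12 did limma give an adjusted p below 0.543. The summed RPM of these rows was 729.7 ± 237 in WT and 619 ± 245 in db/db libraries (exact permutation test, two-sided, p = 0.444, adjusted over 9 tests 0.874).

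Presence did not pass the test in any row. Of the 168 rows above 0, 57 were seen in WT libraries alone, 56 in db/db libraries alone and 55 in both. A row seen in 1 library is of 1 genotype by definition, and 51 of the 57 and 44 of the 56 were such rows. Of the 679 named rows above 0, 141 were likewise seen in 1 library, 78 of them in WT and 63 in db/db libraries. The full split was not counted for named rows, so it is not shown to be particular to unnamed rows. No row was seen in more than 3 libraries of 1 genotype without being seen in the other, and 4 rows reached 3: 6_35695 and 7_38582 in db/db, 7_38395 and 11_5419 in WT libraries. 19_22016 was above 0 in all 6 WT and in 3 db/db libraries, with 1.81 to 6.32 RPM in WT and 0 to 6.47 RPM in db/db libraries. Fisher's exact test of presence called 0 of 156 unnamed rows, over 594 rows of which 0% passed with or without adjustment. The smallest p of an unnamed row was 0.182. The lowest p for 6 libraries against 6, 0.00216, needs a row above 0 throughout 1 genotype and nowhere in the other. A row seen in 3 libraries cannot go below 0.182, and the rows seen in 1 (95) or 2 (24) cannot reach even that. For these sparse rows the lack of a call was fixed by their recurrence and says nothing of genotype. With adjustment over 594 rows, a row at the lowest p of Fisher's test could not pass alone either. The 0 adjusted calls therefore decide nothing for the more recurrent rows.

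Library totals gave the same picture. The share of reads in unnamed rows was 0.105% ± 0.0377 in WT and 0.0974% ± 0.0382 in db/db libraries (exact permutation test, two-sided, p = 0.725, adjusted over 9 tests 0.874). The number of unnamed rows above 0 was 41.7 ± 6.02 in WT and 43.3 ± 9.31 in db/db libraries (exact permutation test, two-sided, p = 0.766, adjusted 0.874). Scaled to the lowest depth by the hypergeometric expectation, the numbers were 38.1 ± 6.34 and 39.8 ± 7.62 (exact permutation test, two-sided, p = 0.706, adjusted 0.874). Without WT 4 and db/db 6 the difference of the shares was -0.00805 percentage points (exact permutation test, two-sided, p = 0.579) in place of -0.00722.

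The tools treated the sparse rows very differently before adjustment. On recovered reads edgeR also called 0 unnamed rows at an adjusted p under 0.05, where 0.310% of all rows passed. At an unadjusted p under 0.05, however, it had 83 of 133 (62.4%), 41 higher and 42 lower, where 24.3% of all rows passed. These 83 comprised all 65 tested rows that were seen in a single library, 13 of the 21 seen in 2 libraries and 5 of the 47 seen in 3 or more. limma gave the same 65 rows unadjusted p of 0.243 to 0.363, and edgeR 0.0102 to 0.0320. DESeq2 called 0 unnamed rows, where 1.24% of all rows passed, and had 2 at an unadjusted p under 0.05, where 6.97% passed. DESeq2 left the adjusted p missing for 130 of the 133 unnamed rows and for 476 of all 646 rows. Rows without an adjusted p could not be called, so the 1.24% is over rows of which most could not pass. Some single-library rows, such as 12_8995, had no unadjusted DESeq2 p either. In the plot of p-values the single-library rows form a band below the edgeR threshold that limma does not share.

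**Figure D5:**
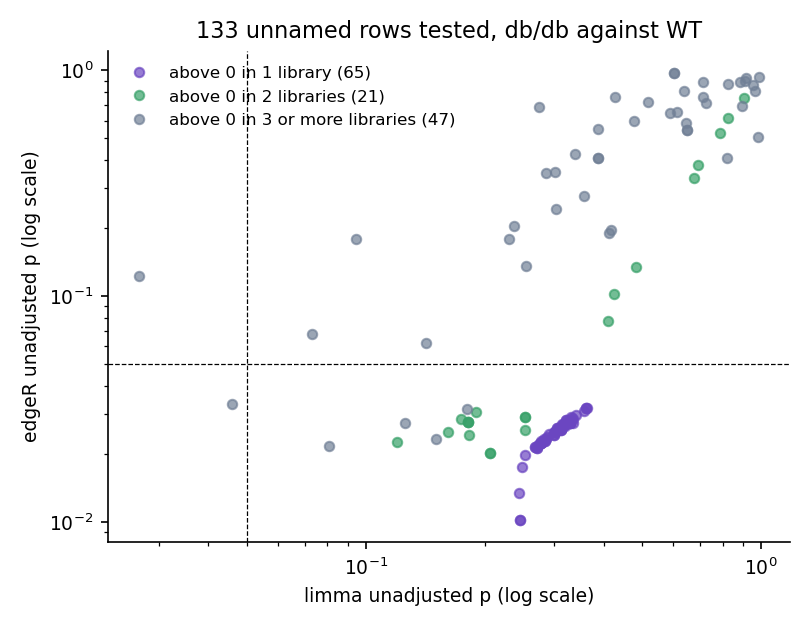
Each point is 1 of the 133 unnamed rows tested between db/db and WT, with the limma unadjusted p on the x axis and the edgeR unadjusted p on the y axis, both on log scales, and dashed lines at 0.05. Colours give the number of libraries above 0; the 65 rows of a single library all lie under 0.05 by edgeR and between 0.243 and 0.363 by limma.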

How the data were processed

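The authors deposited 1 table of values called TPM, with 1 column for each library. Each column sums to 1000000, and 100% of its values are whole multiples of 1 read, within 0.01 of a read. The deposited values are therefore read here as RPM, and reads were recovered from the steps. GRCm39 is the build in the submitters' processing notes; the sources used here do not name the aligner, the miRNA annotation or the caller of the unnamed rows. Per the labels' protocols, adapters were joined to both ends of total RNA, and the amplified libraries were purified on a polyacrylamide gel. The members, lists and tests were chosen with earlier results of these data known, among them that WT 4 and db/db 6 stand apart.

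Rows averaging 1 RPM or more were tested two-sided on log2(RPM + 1) by limma 3.58.1 (R 4.3.3), its prior variance following abundance, with Benjamini-Hochberg adjustment. The design assumed a per-million value and was kept. Recovered reads went into the alternatives, edgeR 4.0.16 with TMM scaling and its quasi-likelihood test, and DESeq2 1.42.0. For library totals all 924 assignments of libraries to genotypes were enumerated, and correlations used 100000 permutations. Rows named in the text were the 10 of highest mean, those above 0 in all libraries, the 10 of smallest p, 3 each of the largest difference in libraries above 0, identical rows in 3 or more libraries and those next to 1 RPM; 12_10004 and the rows identical to or paired with another in 1 library were chosen after their values were seen. 11_5419 (1.001 RPM) was just inside the filter and 10_3893 (0.999 RPM) just outside. The fit was tested on simulated data, in which every row was drawn for all 12 libraries with the same spread between libraries. Unnamed rows seen in few libraries are unlike this, and the simulation does not speak for them. Plots were made with matplotlib 3.10.9 under Python 3.11.15.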

Additional observations from a re-analysis of the deposited data

Results flagged for a closer look

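In 64 groups of 6 values, each 1 measure or named row in 1 genotype, a library far from the other 5 was found in 23. For normally distributed values chance flags about 1 in 20 groups, or 3.2 here. Many of the rows are sparse, which this rate does not allow for, and identical rows count in each. The 23 is therefore not shown to be an excess. The value given is the gap to the nearest library as a share of the whole range. Depth in db/db library 5 stood apart (1382046 reads against at most 773784, 0.628). So did the number of unnamed rows expected at the lowest depth in WT library 4 (50.1 rows, 0.643).

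In db/db library 6, 2_22806 (107 against at most 30.4 RPM, 0.802), 11_6758 (107 against 25.9 RPM, 0.812), 9_43583 (0.666), 15_15080 (0.733), 1_305 and 1_306 (0.668 each) were far above the other db/db libraries. In db/db library 3 this held for 7_37457 and 7_37458 (23.3 against 6.91 RPM, 0.798 each) and for 1_1619 and 1_1620 (0.778 each), and in db/db library 2 for 10_4891 (0.728) and 10_3893 (0.626). In WT library 1 it held for 7_37457 and 7_37458 (35.1 against 4.99 RPM, 0.858 each) and for 1_305 and 1_306 (0.742 each). 7_38395 stood apart in WT library 4 (0.937) and 11_5419 in WT library 5 (0.837). Among WT libraries 9_43583, 15_15080 and 10_3893 were above 0 in 1 library each, a gap of 1, the whole range.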

How the results depend on the processing

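Added after seeing the data were the alternatives for recurrence and for the relation with depth. Each of the 25 alternatives of the genotype test called 0 unnamed rows. Of these, 1 was edgeR and 1 DESeq2, each run once on all libraries. The others, the replicate block and the left-out libraries among them, were limma fits. Rows seen in 1 library could hardly be called by limma. DESeq2 left the adjusted p of 130 of the 133 unnamed rows missing, and these could not be called. Presence called 0 under all 14 of its alternatives. Sparse rows were again unable to pass, and no row could pass alone after adjustment. The genotypes share numbers 1 to 6, but same-numbered libraries did not deviate together (correlation -0.05 to 0.12, and 1 of 6 matched best with its own number). With the replicate block the share differed by -0.00722 percentage points (exact sign-flip p = 0.781) and the number of rows by 1.67 (exact sign-flip p = 0.750). With 1 library left out, the share differed by -0.0190 to 0.00376 percentage points (positive without WT 4 or db/db 5) and the number of unnamed rows by -1.07 to 3.73 (negative without db/db 2 or db/db 5), none past the threshold. The rows seen in exactly 1 library numbered 66 (identical rows merged) to 108 (at least 3 reads) over the alternatives and those seen in every library 10 to 15. The r of the share with depth ranged from -0.88 to -0.71, the last without WT 4 and db/db 6.

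Of 29 named rows with a log2 fold change, 9 changed sign under some alternative, all uncalled. Without WT 4 and db/db 6 the values were -0.10 for 18_20608, 0.15 for 4_29206, -0.37 for 11_6758, -0.0356 for 19_20769 and 0.00029 for 15_15489. With library weights they were -0.0043 for 18_20608 and -0.17 for 11_6758. By edgeR they were -0.0703 for 19_20769 and -0.0377 for 7_37457 and 7_37458, and by DESeq2 -0.0673 and -0.0365. With 1 library left out the ranges were -0.0746 to 0.32 for 18_20608, -0.48 to 0.27 for 11_6758, -0.29 to 0.48 for 19_20769 and -0.0704 to 1.03 for 1_305 and 1_306. The cause was not tested. Rows under about 10 RPM rest on few reads, and depth limits what can be said of them.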
